A study of Mus musculus with 32 samples.

Results

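The clustered histone genes code for the linker histone H1 and the core histones H2A, H2B, H3 and H4, and carry the symbols Hist1h, Hist2h, Hist3h or Hist4h after the gene cluster they lie in. All genes with such a symbol and at least 20 UMIs (unique molecular identifiers, each marking 1 counted transcript) over all barcodes were taken, which gave 55 of 67 listed symbols out of 31053 genes. They were chosen by their total UMI count, so totals are given as a description only. Just inside the minimum were Hist1h2bl with 24 UMIs, Hist1h4m with 23 and Hist2h3b with 21, and just outside it were Hist1h4f with 18 and Hist2h2ab and Hist1h2bp with 17 each. The 55 genes comprise 5 H1, 13 H2A, 15 H2B, 11 H3 and 11 H4 genes. Of these, 44 lie in cluster 1 on chromosome 13, 8 in cluster 2 on chromosome 3, 2 in cluster 3 on chromosome 11 and 1 in cluster 4 on chromosome 6 (GRCm38).

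Most of a cell's histone protein is made in S phase, when newly copied DNA has to be wrapped into nucleosomes. Replication-linked histone mRNAs end in a conserved stem-loop bound by the protein SLBP instead of a poly(A) tail, and they are degraded when DNA synthesis stops. Some of these genes also give polyadenylated transcripts, which use a poly(A) signal past the stem-loop and can be made outside S phase. The 3′ assay used here primes on poly(A), so each level given here is that of the transcripts caught in this way, and mRNA without a tail is caught poorly.

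Single cells had been sequenced with the 10x Genomics 3′ kit, version 3, from the stromal vascular fraction, the cells left when mature adipocytes are removed, of mouse epididymal fat. The study compared wild-type (WT) and CD169-DTR mice after 16 weeks of normal or high fat diet to ask how removal of resident macrophages alters the other cells of lean and obese fat. The 4 groups were normal diet labelled WT, normal diet labelled CD169-DTR, high fat diet labelled WT and high fat diet labelled CD169-DTR, and all of them, the WT controls included, had received diphtheria toxin for 7 days. The strain of the WT mice is labelled C57BL/6 and that of the others CD169-DTR, with no background strain. In CD169-DTR mice the toxin receptor is expressed from Siglec1, which encodes CD169, a lectin of resident macrophages. CD45+ and CD45- cells had been sorted apart, with many F4/80-high cells and Ly6C-high monocytes gated out, and mixed 1:1, so macrophages and monocytes here are those that passed the sort. Each group had 1 library, and the number of mice pooled in it is not stated in the labels. Groups were therefore compared with no test, while cycling and other cells were compared within libraries, over the libraries. Values of 4 libraries are given below in the order in which the groups are named above, called library order.

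The libraries held 33390225 to 64766718 UMIs, and 3597 to 5639 cells per library were kept, 19340 in all, with median depths of 6159 to 9156 UMIs per cell. Barcodes were assigned to libraries by their suffix and the order of the aggregation list, an assignment that other files do not state. Siglec1 had levels of 0.139, 3.5, 1.12 and 3.02 UMIs per 1000000 UMIs (CPM) in library order. It was thus higher in the libraries labelled CD169-DTR, against the direction that loss of CD169+ cells would give among the cells sequenced, and groups are called by their label throughout. Of 19018 barcode sequences, 266 occurred in more than 1 library. They belonged to 588 cells, 204 of them cycling, and the deepest copy had a median of 39040 UMIs against 576 for the shallowest.

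A cell was assigned to 1 of 16 classes when at least 3 of the 6 markers of the class had a UMI and at least 2 more than those of any other class, which left 4321 cells (22.3%) without a class. It was called cycling when at least 5 different genes out of 44 S phase and G2/M genes had a UMI, none of which is a clustered histone gene. The gate took 2017 of 19340 cells (10.4%), of which 831 had 5 to 7 such genes and thus lay near the threshold. Cycling cells were deeper, with a median of 16413 UMIs against 6706 in the other cells.

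The histone 3′ stem-loop, a GC-rich stem of paired bases around a T-rich loop, was searched for on the sense strand of the annotated transcripts (GENCODE M21, GRCm38). It was found in 37 of the 55 genes, against 47 of 55450 genes in all (0.0848%). The stem-loops below are those of genes on which the results turn, with the stem-loop in capitals and the flanking bases in lower case, 5′ to 3′ as DNA.

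Hist1h2ap: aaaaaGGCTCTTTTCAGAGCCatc
Hist1h2ab: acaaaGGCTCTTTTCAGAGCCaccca
Hist1h3c: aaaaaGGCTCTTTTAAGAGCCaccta
Hist1h2ae: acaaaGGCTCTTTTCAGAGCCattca
Hist1h4i: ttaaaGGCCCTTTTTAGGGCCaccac
Hist1h1c: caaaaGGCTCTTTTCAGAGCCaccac
Hist1h1e: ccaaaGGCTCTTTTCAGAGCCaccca
Hist3h2a: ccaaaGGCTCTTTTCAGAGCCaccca

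The letters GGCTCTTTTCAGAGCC were shared by 23 of the 37 genes, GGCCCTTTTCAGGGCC by 6, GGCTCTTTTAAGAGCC by 5 and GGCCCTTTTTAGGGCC by 2, and 1 had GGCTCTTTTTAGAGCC. The genes differ more in how far their annotated transcripts run on. The annotation ends 3 bases past the stem-loop in Hist1h2ap, 11 in Hist1h2ab, 74 in Hist1h3c and 151 in Hist1h2ae, and goes on for 330 bases in Hist1h4i, 840 in Hist1h1c, 1153 in Hist1h1e and 1643 in Hist3h2a. No match was found in the annotated transcripts of Hist1h1a, Hist1h1b and Hist1h2bc, which says only that these letters are not in those transcripts.

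Of the 55 genes, 50 matched a RefSeq promoter of 250 bases before and 50 after the start (GRCm38.p6). The letters CCAAT, on either strand, were in 41 of the 50 (82%) against 33.8% of 32851 promoters. TATAAA was in 22 (44%) against 12.4%, and ATTTGCAT, the octamer, was in 10 (20%) against 1.6%. All 10 were H2A or H2B genes, 5 of 13 in each class, while CCAAT was in 5 of 5 H1, 13 of 13 H2A, 13 of 13 H2B, 7 of 9 H3 and 3 of 10 H4 promoters. Some H2A and H2B promoters overlap on opposite strands, as those of Hist1h2ae and Hist1h2bg do, so the same site can be counted for both genes. The 120 bases before the start of 2 H1 genes that lie far apart in the results below are shown, with CCAAT or its reverse complement ATTGG and TATAAA in capitals. The window of Hist1h1b, H1f5 in RefSeq, is chr13:21780626-21780745 on the minus strand, and that of Hist1h1c, H1f2 in RefSeq, is chr13:23738687-23738806 on the plus strand.

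Hist1h1b: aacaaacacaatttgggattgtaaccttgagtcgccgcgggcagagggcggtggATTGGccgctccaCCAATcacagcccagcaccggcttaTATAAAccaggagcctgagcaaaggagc
Hist1h1c: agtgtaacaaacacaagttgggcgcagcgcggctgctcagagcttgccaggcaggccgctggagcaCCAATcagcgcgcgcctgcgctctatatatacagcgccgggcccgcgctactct

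Over the kept cells the 55 genes held 96443 of 176798304 UMIs, or 545 CPM. Hist1h1c, an H1 linker histone, and Hist1h2bc, an H2B, held 58.6% of these UMIs. H1 genes held 36.1%, H2B genes 30.1%, H2A genes 16.2%, H4 genes 13.5% and H3 genes 4.11%. These are shares of transcripts counted at their 3′ end and are not scaled by length.

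Over the 4 libraries together, the cycling cells held 22.2% of all UMIs, and each of the 55 genes had a larger share of its own UMIs there. High fat diet labelled CD169-DTR held 959 of the 2017 cycling cells. The shares differed between libraries, at 8.82%, 57.7%, 25% and 87.6% for Hist4h4 and 13.2%, 36.8%, 27.9% and 42.6% for Hist1h2bc, in library order. For Hist1h1b they were 94.3%, 94.7%, 96.1% and 97.3%. The pooled share was over 80% in 15 genes, between 50% and 80% in 24, and at or under 50% in 16. Among the genes with at least 200 UMIs it was highest in Hist1h3c, an H3 (98%), Hist1h1b, an H1 (96%), Hist1h2ab (92.6%) and Hist1h2ap (90.1%), both H2A, Hist1h2ae, an H2A (87.1%), and Hist1h1a, an H1 (85.9%). Near the other end were Hist1h2bc (36%), Hist1h1c (41.8%) and Hist3h2a, an H2A (42%), and Hist1h4i, an H4, stood between them (55.5%). Between these lay Hist1h2bj, an H2B (67.3%), the H4 genes Hist4h4 (65.5%) and Hist2h4 (51.7%), Hist1h3e, an H3 (63.2%), Hist2h2aa1, an H2A (43.8%), Hist3h2ba, an H2B (43.2%), and Hist1h4c, an H4 (42.1%). The lowest of all was Hist2h2be, an H2B with 198 UMIs (33.3%). H1, H2A, H2B and H3 each had at least 1 gene over 80% and genes under 50%. In H2B only Hist1h2bl, with 23 UMIs, was over 80% (87%). The H4 genes lay between 38.9%, in Hist1h4m with 18 UMIs, and 65.5%.

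**Figure D1:**
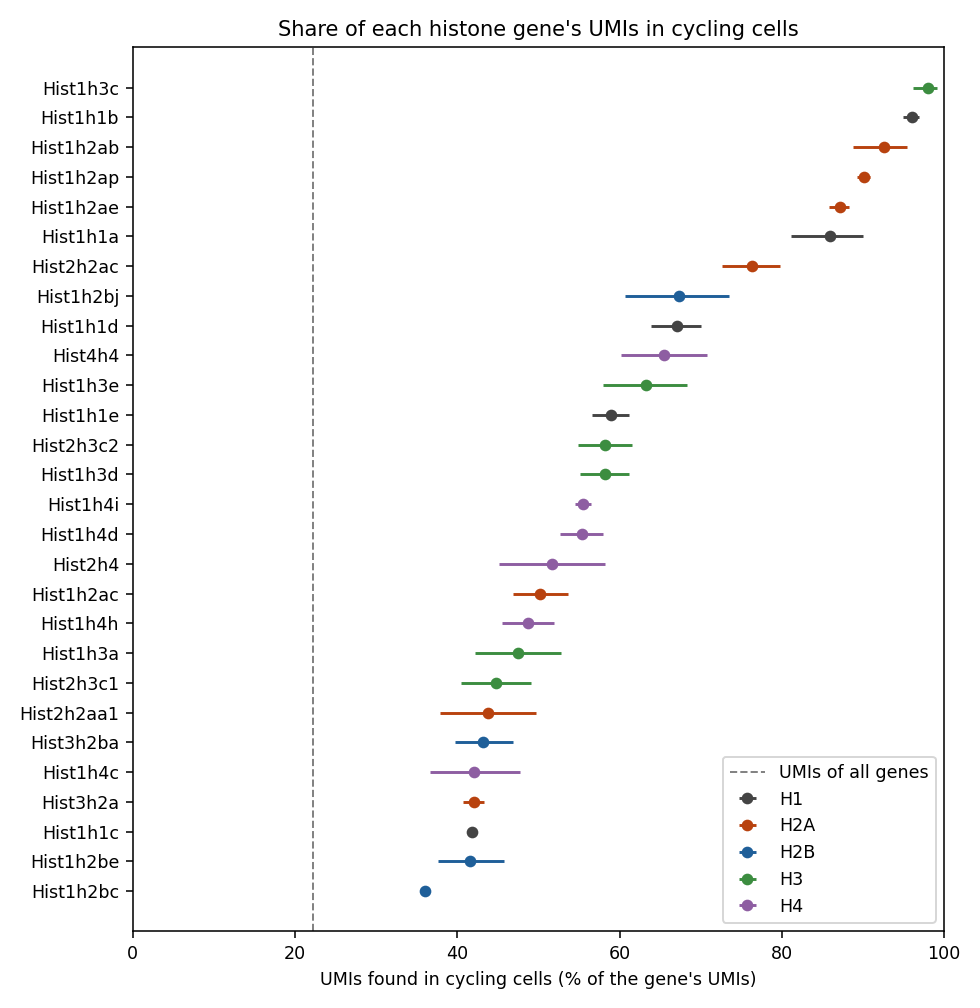
Percent of the UMIs of each clustered histone gene with at least 200 UMIs that lay in cycling cells (horizontal axis), one gene per line, coloured by histone class, with 95% Clopper-Pearson intervals for counting error. The dashed line marks the 22.2% of the UMIs of all genes, and the genes run from 98% in Hist1h3c to 36% in Hist1h2bc. All libraries are pooled.

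Among the 20 genes annotated at most 200 bases past the stem-loop the median share from cycling cells was 69.3% (38.9% to 98%), and 6 of them were over 80%. Among the 17 annotated further it was 55.5% (41.6% to 77.9%), and 0 were over 80%. In the 18 genes with no stem-loop letters the median was 80.2%. Over the 37 genes the share and the length of the annotated extension had a Spearman rho of -0.30, a description across genes that share libraries and cells.

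To compare cycling with other cells, UMIs were summed per library and state within a class and tested with edgeR's quasi-likelihood test with the library as a block, and adjusted p-values (Benjamini-Hochberg) cover all genes tested. Of the 55 genes, 19 passed the filter on low counts in fibroblasts, and 14 were higher and 0 lower in cycling cells, where 5.25% of all genes tested were higher and 6.81% lower. At an unadjusted p under 0.05 the counts were 18 and 0, and in DESeq2 12 and 0. In macrophages 6 of the 15 that passed were higher and 0 lower (5.12% and 5.03% of all genes). In type 1 conventional dendritic cells 4 of 7 were higher and 1 lower (9.84% and 8.35%), in NK cells 7 of 8 were higher and 0 lower (14.9% and 11%), and in T cells 2 of 3 were higher and 0 lower (6.84% and 4.78%). In macrophages, NK cells and T cells the number lower was also 0 at an unadjusted p under 0.05 and in DESeq2. T cells had 3 libraries with at least 10 cycling cells and the other classes 4. The cycling cells numbered 17, 80, 44 and 419 in fibroblasts, 15, 39, 87 and 101 in macrophages and 17, 40, 13 and 42 in NK cells, in library order. A gene counted almost wholly in cycling cells can pass the filter through them alone, which tilts these counts toward genes higher there. The filter also left out most of the 55 genes. With no filter 31 of 55 were higher and 0 lower in fibroblasts (4.53% and 6.55% of all genes) and 11 of 55 and 0 in macrophages (4.66% and 4.73%). The same counts were 11 of 53 and 1 in type 1 dendritic cells (5.12% and 4.92%), 20 of 53 and 0 in NK cells (5.23% and 5.05%), and 4 of 50 and 0 in T cells (3.41% and 3.4%). The fibroblast count with the filter depends on single libraries, as does the number tested. It was 6 of 10 without high fat diet labelled CD169-DTR (2.99% of all genes) and 9 of 16 without normal diet labelled CD169-DTR (2.96%). Without the barcodes shared between libraries it was 8 of 16 (3.79%). The macrophage count was 3 of 10 without high fat diet labelled CD169-DTR (3.49%).

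The H1 genes ranged most widely. Hist1h1b (ENSMUSG00000058773, chromosome 13, 21779883 to 21780625), the H1.5 linker histone, had 23.5, 16.3, 2.57 and 10.6 CPM in cycling fibroblasts against 0.0997, 0.157, 0.0523 and 0.289 in the other fibroblasts, in library order. In macrophages it had 35.7, 16.1, 23.1 and 33.7 CPM against 0, 0, 1.03 and 0. Every cycling value lay above every other value in both classes. The log2 fold change was 5.70 (SE 0.50, adjusted p = 2.01e-06) in fibroblasts. It was 5.50 (SE 0.51, adjusted p = 2.68e-05) in macrophages, where the other cells held only 3 UMIs against 161 and the pooled ratio was 53.3-fold (17.9 to 261 by counting). Without high fat diet labelled WT, where all 3 of those UMIs lay, it was 8.10, and without high fat diet labelled CD169-DTR 4.82. In fibroblasts it was 6.47 without high fat diet labelled CD169-DTR. In type 1 dendritic cells the change was 7.12 (SE 0.38, adjusted p = 2.93e-08), again against 3 UMIs, and in NK cells 5.87 (SE 0.33, adjusted p = 2.69e-16).

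Hist1h1c (ENSMUSG00000036181, chromosome 13, 23738808 to 23740367), the H1.2 linker histone, had 56.4, 201, 66.7 and 405 CPM in cycling fibroblasts and 55.8, 87.4, 47.4 and 228 in the others. The groups overlapped: the libraries labelled CD169-DTR were high in both states. Its log2 fold change of 0.62 (SE 0.16, adjusted p = 0.0169) passed the test in fibroblasts, but not without the shared barcodes (0.36, adjusted p = 0.158), in the fit with DESeq2 (adjusted p = 0.0686), or without high fat or normal diet labelled CD169-DTR (adjusted p = 0.0971 and 0.228). In macrophages it had 143, 729, 236 and 559 CPM in cycling cells and 186, 507, 165 and 413 in the others, a difference of 0.26 (SE 0.15, adjusted p = 0.298). In NK, T and type 1 dendritic cells the log2 fold changes were 0.53, 0.25 and 0.05 and did not pass the test.

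Of the other H1 genes, Hist1h1a was tested in fibroblasts only and was higher there by 5.29 (SE 0.58). Hist1h1e rose by 2.82 in fibroblasts, 1.52 in macrophages and 1.62 in NK cells, and Hist1h1d by 1.97, 1.51 and 1.68 (log2). In macrophages neither call held in DESeq2 (adjusted p = 0.0769 and 0.314), nor did that of Hist1h1d without high fat diet labelled WT (adjusted p = 0.152). Hist1h1e overlaps Hist1h2be on the same strand, and none of the 50-base stretches in its last 200 bases is unique among transcripts, so its reads may be divided between them.

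Among H2A genes, Hist1h2ap and Hist1h2ae rose in cycling cells of all 5 classes. Hist1h2ap (ENSMUSG00000094777, chromosome 13, 21833026 to 21833507) had 113, 98.2, 34.6 and 43.6 CPM in cycling fibroblasts against 0.299, 1.1, 0.418 and 2.21 in the others. Its log2 fold changes were 5.45 in fibroblasts (SE 0.39, adjusted p = 2.30e-07), 3.71 in macrophages (SE 0.37), 5.93 in type 1 dendritic cells (SE 0.30), 4.18 in NK cells (SE 0.19) and 4.77 in T cells (SE 0.35). None of the 50-base stretches in its last 200 bases is unique, so its UMIs cannot be told apart from those of near-identical H2A copies. Hist1h2ae (ENSMUSG00000069272, chromosome 13, 23570517 to 23571220), whose 3′ end is unique, had 9.39, 26.6, 8.98 and 30.6 CPM in cycling fibroblasts against 0.698, 0.393, 0.105 and 1.44. The groups of neither gene overlapped. Hist1h2ae rose by 4.73 (SE 0.38, adjusted p = 8.33e-07) in fibroblasts and by 3.26 to 4.64 in the other classes. Without high fat diet labelled CD169-DTR the change in fibroblasts was 6.70 for Hist1h2ap and 5.34 for Hist1h2ae, and that of Hist1h2ap in macrophages 4.37. Without normal diet labelled WT that of Hist1h2ap in type 1 dendritic cells was 5.22.

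In cycling NK cells both genes were counted at over 100 CPM in every library. Hist1h2ap had 624, 477, 252 and 265 CPM in cycling NK cells against 31.2, 29.4, 7.85 and 23.5 in the others, and Hist1h2ae 196, 244, 134 and 224 against 9.93, 19.2, 6.54 and 11.8. Cycling NK cells lay above the cycling fibroblasts and macrophages for both genes in each library. These levels were not tested between classes.

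Hist3h2a (ENSMUSG00000078851, chromosome 11, 58954685 to 58956830), an H2A in cluster 3, moved in opposite directions. In type 1 dendritic cells it had 21.5, 25, 18.4 and 33.9 CPM in cycling cells against 36.6, 72.6, 24.5 and 50.4 in the others, lower in 4 of 4 libraries. The log2 change of -0.93 (SE 0.22, adjusted p = 0.00792) passed the test, but not in DESeq2 (adjusted p = 0.0691). In fibroblasts it had 9.39, 27.1, 6.41 and 56.3 CPM in cycling cells against 7.98, 10.6, 8 and 28.5, higher in 3 of 4 libraries. The change of 0.76 (SE 0.21, adjusted p = 0.0274) did not hold in DESeq2 (adjusted p = 0.29), without the shared barcodes (adjusted p = 0.103), or without either library labelled CD169-DTR (adjusted p = 0.251 and 0.43). The difference between the 2 classes was not tested. Hist3h2a overlaps Trim17 on the same strand.

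Hist2h2ac and Hist1h2ab, tested in fibroblasts only, were higher in cycling cells by 4.13 (SE 0.49) and 5.04 (SE 0.72). Hist1h2ac did not pass the test in fibroblasts (0.81, adjusted p = 0.218) or macrophages (0.39, adjusted p = 0.653).

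Of the 15 H2B genes, Hist1h2bc and Hist1h2be passed the filter, and neither was called. With no filter Hist1h2bj was called higher in 2 of the 5 classes, fibroblasts and NK cells, Hist1h2bh, Hist1h2bl, Hist1h2bn, Hist2h2bb and Hist3h2ba in fibroblasts only, and Hist1h2bb and Hist1h2bk in NK cells only. Hist1h2bc (ENSMUSG00000018102, chromosome 13, 23684199 to 23692908) had 108, 157, 105 and 293 CPM in cycling fibroblasts and 88.9, 118, 80.3 and 190 in the others. It was higher in cycling cells in 4 of 4 libraries, and the groups overlapped. Its log2 change was 0.29 in fibroblasts (SE 0.12, adjusted p = 0.145), 0.30 in macrophages (SE 0.16, adjusted p = 0.275) and 0.37 in type 1 dendritic cells (SE 0.23, adjusted p = 0.306). The direction in fibroblasts depends on the gate. With at least 8 cycle genes it was -0.56 (adjusted p = 0.00134), and with a gate on Mki67 and Top2a alone, markers of proliferation, it was -0.47 (adjusted p = 0.0195).

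Among H3 genes, Hist2h3c2 was higher in cycling fibroblasts by 1.62 (SE 0.36, adjusted p = 0.00833) and macrophages by 1.22 (SE 0.29, adjusted p = 0.0164), calls that did not hold without the shared barcodes (adjusted p = 0.0603 and 0.181). In fibroblasts the call was also lost without high fat or normal diet labelled CD169-DTR (adjusted p = 0.226 and 0.0661). Hist1h3a had 49.1, 33.7, 39.3 and 37.8 CPM in cycling NK cells against 12.8, 5.48, 11.8 and 7.06 in the others, a rise of 2.22 (SE 0.40, adjusted p = 6.04e-05). Hist1h3c, at 9.39, 2.71, 0 and 4.03 CPM in cycling fibroblasts and 0, 0, 0 and 0.0321 in the others, was too rare to pass the filter. With no filter it was called higher in all 5 classes, as were Hist1h1b, Hist1h2ae and Hist1h2ap. Hist1h3d (1.21, adjusted p = 0.0506) and Hist2h3c1 (0.96, adjusted p = 0.157) did not pass the test in fibroblasts, and the 3′ end of Hist2h3c1 is not unique.

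Among H4 genes, Hist1h4i (ENSMUSG00000060639, chromosome 13, 22040636 to 22041362) had 37.6, 157, 11.5 and 188 CPM in cycling fibroblasts against 2.09, 25.1, 2.14 and 65 in the others. It was higher in cycling cells in 4 of 4 libraries, although the values of the 2 states overlapped, since high fat diet labelled CD169-DTR was also high outside the gate. The log2 fold change was 2.01 (SE 0.23, adjusted p = 3.11e-05) in fibroblasts, 1.35 (SE 0.31, adjusted p = 0.000991) in NK cells and 1.15 (SE 0.31, adjusted p = 0.0196) in type 1 dendritic cells. In DESeq2 the calls in NK and dendritic cells were lost (adjusted p = 0.0542 and 0.122). That in NK cells was also lost without normal diet labelled CD169-DTR (adjusted p = 0.0506). That in dendritic cells was lost without high fat diet labelled CD169-DTR, normal diet labelled CD169-DTR or normal diet labelled WT (adjusted p = 0.0517, 0.0828 and 0.075). In macrophages it had 25.9, 217, 27.2 and 251 CPM in cycling cells and 35.8, 179, 30.9 and 152 in the others, and the change of 0.20 (SE 0.18, adjusted p = 0.545) did not pass the test. Hist1h4d and Hist1h4h rose in fibroblasts by 2.05 (SE 0.33) and 1.75 (SE 0.44), and in macrophages had changes of 0.57 and -0.12 that did not pass. In fibroblasts the call of Hist1h4h was lost without normal diet labelled CD169-DTR (1.32, adjusted p = 0.182), and without high fat diet labelled CD169-DTR the changes of Hist1h4i and Hist1h4d were 2.64 and 2.70. The difference between classes was not tested for any H4 gene.

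**Figure D2:**
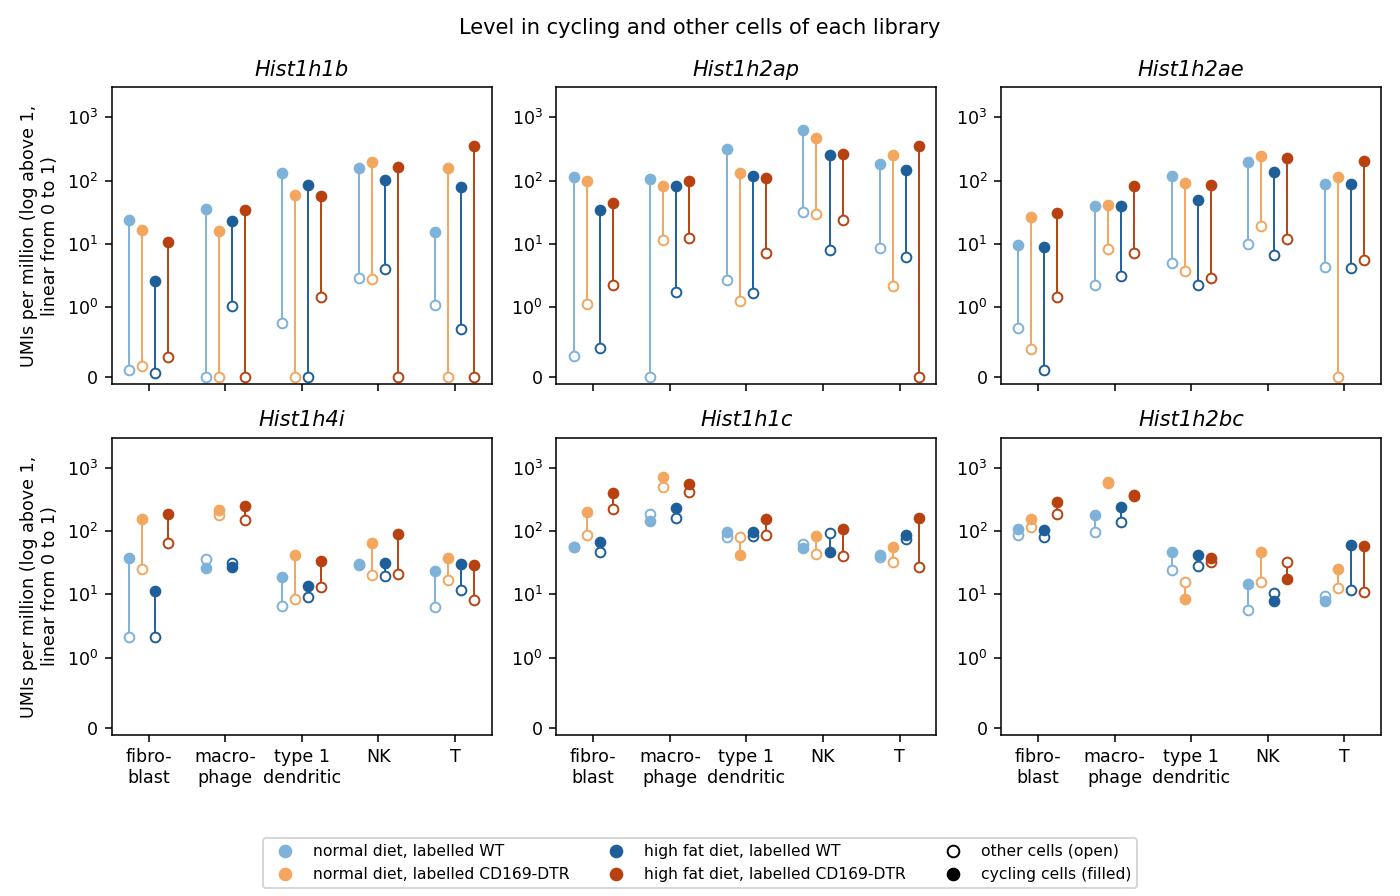
Levels (CPM, log above 1 and linear from 0 to 1) of 6 histone genes in cycling (filled) and other (open) cells of each library, 5 cell classes along each axis, with a line joining the states of a library. Hist1h1b, Hist1h2ap and Hist1h2ae lie higher in the cycling cells of every library shown, while the lines of Hist1h1c and Hist1h2bc run in both directions in NK cells, where Hist1h1c had 54, 85.6, 47.2 and 108 CPM in cycling and 63.8, 43.8, 95.5 and 40 in other cells.

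**Figure D3:**
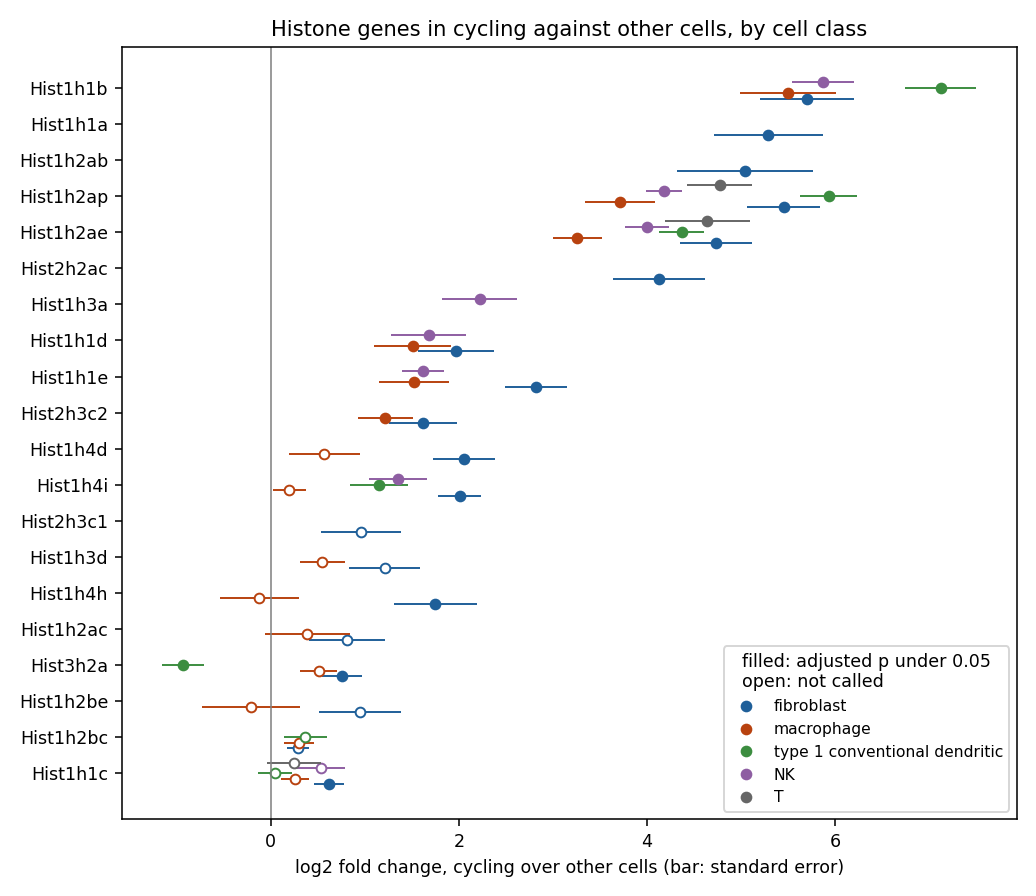
Log2 fold change of cycling over other cells for each histone gene tested in a class (horizontal axis), coloured by class. The bar is the standard error derived from the test statistic. Filled points passed an adjusted p of 0.05 and open points did not, and values run from 7.12 for Hist1h1b to -0.93 for Hist3h2a, both in type 1 conventional dendritic cells.

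Other markers moved with the cycling fibroblasts. The summed level of 6 adipocyte transcripts was higher in cycling fibroblasts in 4 of 4 libraries, at 24.4 to 2527 CPM against 6.53 to 133, and that of 6 pericyte or smooth muscle markers in 4 of 4, at 151 to 414 against 121 to 233. The lists of type 1 dendritic cells (47.5 to 108 CPM against 46.1 to 70.8) and migratory dendritic cells (122 to 263 against 69 to 232) were higher in 4 of 4 as well. The 6 fibroblast markers were higher in cycling fibroblasts in only 1 of 4 libraries. They stood at 19318 to 45723 CPM in cycling and 32749 to 43735 in other fibroblasts, against 38.9 to 292 in macrophages. The 6 T cell markers were higher in 0 of 4, at 0 to 3.85 CPM in cycling fibroblasts against 3.37 to 8.48. Depth moved with the state as well, since cycling fibroblasts had medians of 12762 to 21392 UMIs against 9599 to 12164. In macrophages the 6 macrophage markers were lower in cycling cells in 4 of 4 libraries, at 3855 to 7804 CPM against 6314 to 12652. So were, in 4 of 4, the markers of monocytes (138 to 386 against 498 to 1051), type 1 dendritic cells (173 to 211 against 210 to 289), neutrophils (7.84 to 21.2 against 20.6 to 51.5), B cells (0 to 10.8 against 5.78 to 41.6) and red cells (0 to 9.07 against 5.78 to 1275). Cycling macrophages had medians of 16674 to 30653 UMIs against 3271 to 9734. The part of these markers and of depth in the results was not tested. Cells were also thinned to 3000 UMIs before the gates, and cells with fewer UMIs were left out. In this set 9 of 12 genes tested were higher in cycling fibroblasts (3.41% of all genes in that fit). The counts were 2 of 5 in macrophages (2.18%) and 3 of 3 in NK cells (9.98%).

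The number of cycle genes a cell carried separated 2 patterns. Hist1h2ap had 3.85 CPM in cells with 0 cycle genes, 3 with 1 to 2, 3.71 with 3 to 4, 6.77 with 5 to 7, 13.5 with 8 to 14 and 237 with at least 15. Hist1h1b went from 0.574 to 90.1 CPM over the same bins, and stood at 2.65 with 8 to 14. Both were thus concentrated in the 776 cells with at least 15 cycle genes, which held 9.5% of all UMIs, 94% of those of Hist1h1b and 85.7% of those of Hist1h2ap. Hist1h2bc instead rose from 78.8 CPM to 373 with 8 to 14 cycle genes and stood at 145 with at least 15, where 9.23% of its UMIs lay.

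Depth changes with the bin, from a median of 3733 UMIs at 0 cycle genes to 17511 at 15 or more. Cells were therefore thinned to 3000 UMIs, and those with fewer were left out. Cycle genes were counted after thinning, so a bin holds other cells than before. Hist1h2bc then had 102, 108, 104, 98.6, 112 and 77.4 CPM over the 6 bins, without the rise seen before thinning. Hist1h2ap had 4.13, 4.56, 11.7, 40.7, 271 and 433 CPM, a rise seen with and without thinning. Hist1h1c had 111 CPM at 0 cycle genes and 329 at 15 or more when thinned, against 88.5 and 333 without thinning.

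**Figure D4:**
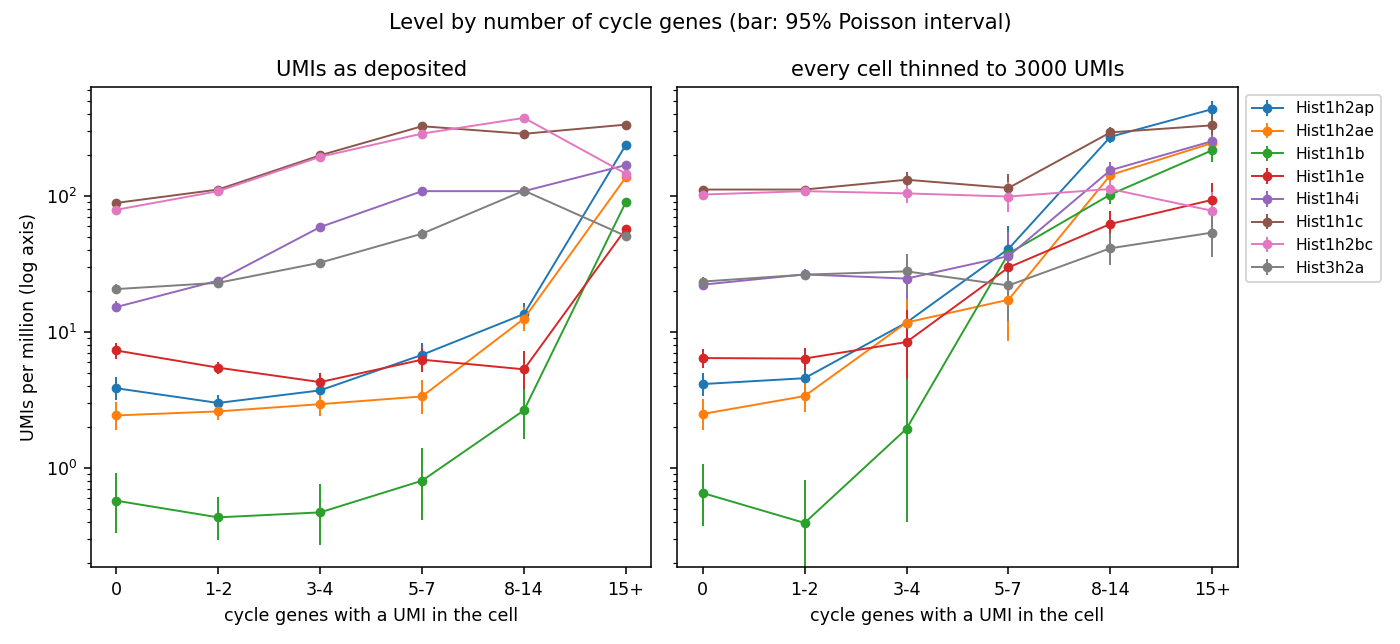
Level (CPM, log axis) of 8 histone genes by the number of cycle genes with a UMI in the cell, with 95% Poisson intervals for counting error. UMIs are as deposited on the left. On the right cells are thinned to 3000 UMIs before cycle genes are counted, and cells with fewer UMIs are left out. Hist1h2ap reaches 237 CPM on the left and 433 on the right in the last bin, and Hist1h2bc lies between 77.4 and 112 CPM on the right.

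Cycling cells with more S phase genes were compared with those with more G2/M genes, over all classes. Of the 24 histone genes that passed the filter 0 were higher in S-leaning cells (0.777% of all genes were) and 14 were lower (2.55% of all genes). At an unadjusted p under 0.05 there were 0 higher and 18 lower, and in DESeq2 0 higher and 14 lower. With no filter 0 were higher (1.64%) and 17 of 55 lower (1.96%). Hist1h2ap had 101, 72.8, 28 and 22.3 CPM in S-leaning cells and 425, 258, 223 and 145 in G2/M-leaning cells, and every G2/M value lay above every S value. Its log2 change was -2.36 (SE 0.19, adjusted p = 0.00084), and that of Hist1h1e was -2.12 (SE 0.14, adjusted p = 0.000368). That of Hist1h3c, which passed the filter here, was -2.35 (SE 0.25, adjusted p = 0.00248). Of the H2B genes Hist3h2ba (-2.58, SE 0.42) and Hist1h2bj (-1.92, SE 0.38) were lower. Hist1h2bc did not pass the test (-0.21, SE 0.17, adjusted p = 0.544).

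The 2 sets of cells also differed in how many cycle genes they carried. S-leaning cells had medians of 9, 7, 7 and 6 cycle genes in library order against 22, 25, 25.5 and 21, and 40.5% to 67.9% of them had 5 to 7, against 9.52% to 23.6%. Their classes differed too: fibroblasts made up 8.11%, 38.1%, 20.1% and 70.3% of S-leaning cells against 11.9%, 39.6%, 4.76% and 57.4% of G2/M-leaning cells, and macrophages 6.31%, 16.1%, 26.1% and 14.6% against 11.9%, 22.6%, 33.3% and 17.9%. The part of this mix in the result was not tested. Among cells with at least 15 cycle genes only 2 of 17 genes tested were lower in S-leaning cells (1.5% of all genes), and Hist1h1b, at -1.78 in all cycling cells (adjusted p = 0.0158), was at 0.00 (adjusted p = 0.999). In all cycling cells the count was 2 without the library block (1.02% of all genes), 7 without high fat diet labelled WT (1.38%) or without normal diet labelled CD169-DTR (1.45%), and 8 without normal diet labelled WT (1.86%). Among these, Hist1h1b was lost without high fat or normal diet labelled WT (adjusted p = 0.065 and 0.0598), and Hist3h2ba without normal diet labelled CD169-DTR or WT (adjusted p = 0.0775 and 0.0721). Hist1h2bj was lost without high fat diet labelled CD169-DTR, high fat diet labelled WT or normal diet labelled CD169-DTR (adjusted p = 0.084, 0.143 and 0.12). In macrophages alone, 2 of 13 genes were lower in S-leaning cells and 0 higher (1.31% and 0.124% of all genes), and with no filter 13 of 53 were lower and 0 higher (2% and 1.15%). With the filter these were Hist1h2ae by 2.63 and Hist1h2ap by 2.96 on the log2 scale. That count was 0 without high fat diet labelled WT (0.0539% of all genes), 10 without normal diet labelled CD169-DTR (2.53%) and 10 without the shared barcodes (2.24%). Without high fat diet labelled CD169-DTR the changes of Hist1h2ae and Hist1h2ap were -3.78 and -4.08.

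The cells with at least 15 cycle genes were also divided by their phase genes. In the 29 cells with up to 3 G2/M genes Hist1h2ap had 9.65 CPM (3.13 to 22.5, from 5 UMIs) and Hist1h1b 0 UMIs, which allows up to 7.12 CPM. In the 274 cells with more S than G2/M genes they had 176 and 80.4 CPM, and in the 428 with as many or more G2/M genes 300 and 106. In the 45 cells with up to 3 S genes they had 60.5 and 14.7 CPM. Of these bins the levels were highest in the cells with as many or more G2/M genes. Having up to 3 genes of 1 phase also limits how many cycle genes a cell can carry. Depth differed too, with medians of 15462, 17791, 18056 and 11230 UMIs in the order given. The part of both in these levels was not tested. These bins pool the 4 libraries and carry counting intervals only.

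Genes that act on histones were read from lists chosen for their function. Of 12 histone chaperone and import genes, 9 of 12 tested rose in cycling fibroblasts, 7 of 12 in macrophages, 10 of 10 in type 1 dendritic cells, 8 of 9 in NK cells and 7 of 9 in T cells, and 0 fell. Of all genes 5.25%, 5.12%, 9.84%, 14.9% and 6.84% were higher in these classes, in the same order. Asf1b, a chaperone that hands H3 and H4 to the replication fork, had the lowest p of this list in all 5 classes, with log2 rises of 4.96 (SE 0.43) in fibroblasts and 3.60 (SE 0.31) in macrophages. Chaf1a, a subunit of the chromatin assembly factor CAF-1, rose by 3.09 (SE 0.35) and 4.39 (SE 0.39), and Hat1, which acetylates newly made H4, by 1.35 (SE 0.16) and 1.17 (SE 0.16). The median over the chaperone genes tested was 0.77 in fibroblasts, where that of all genes was -0.03, and 1.54 in type 1 dendritic cells, where it was -0.00.

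Of 14 genes of histone mRNA transcription and 3′ end processing, 3 of 13 tested rose in fibroblasts, 1 of 11 in macrophages, 3 of 10 in type 1 dendritic cells, 4 of 10 in NK cells and 1 of 8 in T cells, beside those same shares of all genes. Slbp, the stem-loop binding protein, rose by 0.62 (SE 0.13) in fibroblasts, 1.28 (SE 0.14) in type 1 dendritic cells and 0.74 (SE 0.15) in NK cells, and Eri1, an exonuclease that trims histone mRNA ends, by 0.73, 0.97 and 0.75. Of 11 histone genes outside the clusters, 6 of 11 rose in fibroblasts and 4 of 9 in macrophages (5.25% and 5.12% of all genes). The counts were 4 of 9 in type 1 dendritic cells (9.84%), 6 of 8 in NK cells (14.9%) and 2 of 9 in T cells (6.84%). In macrophages H2afj, named after its value was seen, fell by 0.46 (5.03% of all genes were lower). H2afx, the H2A variant phosphorylated at DNA breaks, rose by 1.82 in both fibroblasts and macrophages (SE 0.19 and 0.18). H2afz, a variant placed at gene starts, rose by 1.59 (SE 0.15) and 0.92 (SE 0.12). Cenpa, the centromeric H3, rose by 4.06 (SE 0.37) and 1.55 (SE 0.15), and in S-leaning cells it was lower by 3.32 (SE 0.33) than in G2/M-leaning cells. In that comparison 5 of the 11 genes were lower and 0 higher (2.55% and 0.777% of all genes).

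Outside the cycling gate, the levels of the histone genes differed between cell classes. Over the libraries with at least 50 cells of a class, Hist1h2bc had a median of 254 CPM in macrophages (98.6 to 574 over 4 libraries), 103 in fibroblasts (80.3 to 190) and 101 in endothelial cells (92.9 to 105 over 3 libraries). In type 1 dendritic cells it stood at 26 (16 to 33.1), in NK cells at 13.1 (5.67 to 33) and in T cells at 11.3 (9.52 to 12.8). These are not all classes: mesothelial cells stood at 298 in 1 library, and neutrophils at 241 (145 to 268 over 3 libraries, 62 UMIs). The ranges of macrophages, fibroblasts and endothelial cells overlapped, all 3 lay above those of dendritic, NK and T cells, and the ranges of NK and T cells overlapped. Hist1h1c had medians of 300 CPM in macrophages (165 to 507), 82.8 in type 1 dendritic cells (82.1 to 86.5), 71.6 in fibroblasts (47.4 to 228), 53.8 in NK cells (40 to 95.5) and 35.7 in T cells (27.4 to 76.5). Of these 5 classes macrophages lay above dendritic, NK and T cells in every library, and their range met that of fibroblasts. These levels were not tested.

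Hist1h2ap and Hist1h1b stayed low outside the gate. Hist1h2ap had its highest median there in NK cells, 26.4 CPM (7.85 to 31.2), and 0.759 in fibroblasts (0.299 to 2.21). Hist1h1b had 2.79 CPM in NK cells (0 to 3.92) and 0.128 in fibroblasts (0.0523 to 0.289). Its highest median was in group 2 innate lymphoid cells, 5.34 (2.92 to 7.76 over 2 libraries), from 4 UMIs.

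Libraries were compared in fibroblasts outside the gate. A gene needed 50 UMIs over 2 libraries to be compared, and Hist1h1c, Hist1h2bc, Hist1h4i and Hist3h2a met this in each of 4 contrasts. Between diets in the libraries labelled WT, 0 of these 4 passed a 2-fold ratio (2.63% of all genes were at least 2-fold higher and 4% lower). Between labels in normal diet 1 of 4 did (5.54% higher and 2.98% lower), which was Hist1h4i. Between diets in the libraries labelled CD169-DTR 10 of 15 genes compared were at least 2-fold higher (8.43%, with 4.47% lower), and between labels in high fat diet 13 of 14 (13.9%, with 3.44% lower), but genes that were compared only there had to be high in high fat diet labelled CD169-DTR to be counted.

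Hist1h4i had 2.09, 25.1, 2.14 and 65 CPM in these fibroblasts, and both libraries labelled CD169-DTR were high. Compared with the label WT, the log2 ratio in lean mice was 3.58 (2.95 to 4.30), and after high fat diet it was 4.92 (4.48 to 5.41). The ratio of high fat to normal diet was 0.03 (-0.76 to 0.87) in the libraries labelled WT and 1.37 (1.20 to 1.55) in those labelled CD169-DTR. It rests on few cells: 50% of the UMIs lay in 6 of 1084, 6 of 1033, 14 of 1716 and 46 of 2414 cells, in library order. When each cell was given the same weight the levels were 14, 15.2, 2.61 and 43.5 CPM, so the libraries of normal diet lay close to each other and those of high fat diet far apart.

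Hist1h1c had 55.8, 87.4, 47.4 and 228 CPM, Hist1h2bc 88.9, 118, 80.3 and 190, and Hist3h2a 7.98, 10.6, 8 and 28.5. High fat diet labelled CD169-DTR was the highest in all 3, and normal diet labelled CD169-DTR was the second. Its log2 ratios over high fat diet labelled WT were 2.27 (2.17 to 2.37), 1.24 (1.16 to 1.33) and 1.83 (1.58 to 2.09). With each cell given the same weight, the levels of Hist1h1c were 74.2, 75.8, 44 and 182 CPM.

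The depth of the cell moved with these levels. In high fat diet labelled CD169-DTR 297 of the 2414 fibroblasts had over 20000 UMIs, against 9, 95 and 64 in the other libraries, and there Hist1h4i had 185 CPM, against 28.6 in cells of 10000 to 20000 UMIs. In normal diet labelled CD169-DTR the same bins had 91.1 and 8.29 CPM, and in high fat diet labelled WT 2.7 and 2.54. At 10000 to 20000 UMIs alone, Hist1h4i was thus at 1.01, 8.29, 2.54 and 28.6 CPM, and Hist1h1c at 53.8, 58.4, 51.2 and 143. The part of depth in these differences was not tested, and with 1 library per group a difference between groups cannot be told apart from a difference between libraries.

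**Figure D5:**
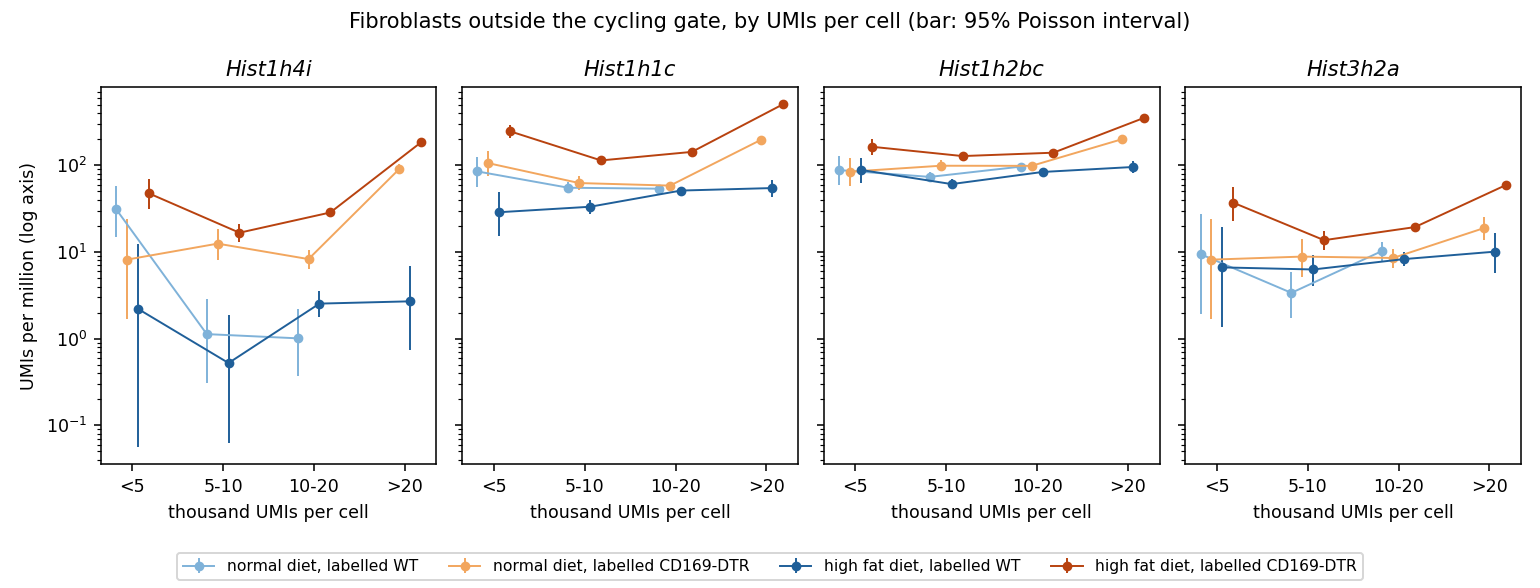
Level (CPM, log axis) of 4 histone genes in fibroblasts outside the cycling gate, by the UMIs of the cell, 1 line per library, with 95% Poisson intervals for counting error. In cells over 20000 UMIs Hist1h4i stands at 91.1 and 185 CPM in the libraries labelled CD169-DTR and at 2.7 in high fat diet labelled WT.

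In NK cells outside the gate 0 of 2 genes passed a 2-fold ratio between diets in the libraries labelled WT (0.753% of all genes higher and 0.649% lower) and 0 of 4 in those labelled CD169-DTR (0.728% and 2.47%). Between labels, 1 of 5 was higher in normal diet (5.08%, with 0.616% lower), and the 1 gene compared in high fat diet was lower (2.72%, with 3.14% higher). In T cells 0 of 2 passed between diets in the libraries labelled WT (2.04% higher and 1.79% lower) and 0 of 1 between labels in normal diet (1.66% and 1.4%), while 1 of 2 was lower between labels in high fat diet (2.21%, with 1.8% higher). Hist1h1c had 63.8, 43.8, 95.5 and 40 CPM in NK cells and 39.2, 32.1, 76.5 and 27.4 in T cells, highest in high fat diet labelled WT in both.

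The share of cycling cells differed between libraries too. In fibroblasts it was 1.54% (0.902 to 2.46), 7.19% (5.74 to 8.87), 2.5% (1.82 to 3.34) and 14.8% (13.5 to 16.2), higher in the libraries labelled CD169-DTR in both diets. In macrophages it was 15.2% (8.74 to 23.8), 35.1% (26.3 to 44.8), 23.5% (19.3 to 28.2) and 32.2% (27 to 37.6). These are exact Clopper-Pearson intervals. The gate takes deeper cells more readily. Among cells with at least 3000 UMIs, each thinned to 3000, the fibroblast shares were 0.201%, 1.99%, 0.302% and 3.46%, again higher in the libraries labelled CD169-DTR. In macrophages normal diet labelled CD169-DTR had the highest share before thinning, but not after it.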

How the data were processed

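The deposited matrix held raw UMI counts per gene and barcode, made by the authors with Cell Ranger 3.1.0 against mm10, per the submitters' processing notes. The 32 sample records were taken as 8 runs of each of 4 libraries. The sources used here do not say whether reads were subsampled on aggregation. Barcodes under 300 genes or over 10% mitochondrial UMIs were dropped, and doublets called per library by Scrublet (scanpy 1.11.5, expected rate 5.4%) were removed, 0.745% to 1.29% of cells.

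Levels are UMIs per 1000000 of the class and library (CPM), with exact Poisson intervals. Summed counts were tested with edgeR 4.0.16 (TMM, filterByExpr, glmQLFit and glmQLFTest, library as a block, 2-sided, called at an adjusted p under 0.05), and with DESeq2 1.42.0 as an alternative. Each SE given is derived from the edgeR fit, as the absolute log2 fold change over the square root of the quasi-likelihood F statistic. The genes of the cycling gate and the markers of the cell class gate were left out of the tests, which were tested on simulated data. States were paired within a library because they come from the same library. The block takes up differences in level between libraries. Since the 4 libraries are 1 per group, p-values rest on how the difference between states varies over libraries that differ in diet and label. Ratios between libraries have exact binomial intervals conditional on their sum. Every interval is a 95% interval for counting error alone. Use of strand in counting is not given in the sources, and genes that overlap on the same strand are named.

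Named genes are those with at least 200 UMIs, others called in a test, those just inside and outside the minimum, and up to 4 per list by lowest p. The histone genes, lists and gates were chosen with earlier results of these data known. Alternatives changed the gates, depth, filters, doublets, class gate, scaling, test and libraries; leaving out shared barcodes and the gate of at least 15 cycle genes were chosen after seeing the data.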

Additional observations from a re-analysis of the deposited data

Results flagged for a closer look

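In fibroblasts outside the cycling gate, the log2 ratio of high fat to normal diet had opposite signs in the libraries of the 2 labels for 2 histone genes. For Hist1h1c it was -0.24 in the libraries labelled WT and 1.38 in those labelled CD169-DTR, and for Hist1h2bc it was -0.15 and 0.68. The same ratio of Hist1h1c in the libraries labelled WT was 0.58 in NK cells and 0.97 in T cells, against -0.24 in fibroblasts. The log2 ratio of the label CD169-DTR over WT in high fat diet was 2.27 for Hist1h1c in fibroblasts, -1.25 in NK cells and -1.48 in T cells. The difference was not tested in any of these cases, since each group has 1 library.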

How the results depend on the processing

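Of 215 counts and shares recomputed, 151 stayed within the range set for no change and 64 moved. The number of histone genes higher in cycling fibroblasts was 14 of 19 tested (5.25% of all genes were higher). It was 25 of 31 with a gate of at least 8 cycle genes (10.6%) or on Mki67 and Top2a (10.8%). With at least 3 it was 6 of 10 (4.5%), and with no filter on low counts 31 of 55 (4.53%). Without the shared barcodes it was 8 of 16 (3.79%), and in cells thinned to 3000 UMIs 9 of 12 (3.41%). Without the replicate block, which pairs the states of a library, it was 7 of 19 (1.34%). With 1 library left out it ran from 6 of 10 (2.99%) to 15 of 20 and 15 of 21 (4.45% and 4.41%). In macrophages the 6 of 15 (5.12%) became 3 of 15 in DESeq2 (3.45%), 11 of 55 with no filter (4.66%) and 2 of 5 when thinned (2.18%). Without the replicate block the count was 3 of 15 (1.99%). With 1 library left out it ran from 3 of 10 (3.49%) to 6 of 16 (4.81%). The 7 of 8 in NK cells (14.9%) became 11 of 11 with Mki67 and Top2a (12.5%) and 20 of 53 with no filter (5.23%). When thinned they became 3 of 3 (9.98%). The 4 of 7 in type 1 dendritic cells (9.84%) became 7 of 10 with Mki67 and Top2a (10.1%) and 11 of 53 with no filter (5.12%). The 2 of 3 in T cells (6.84%) became 4 of 8 with a looser class gate (3.66%) and 4 of 50 with no filter (3.41%). The 14 of 24 genes lower in S-leaning cells (2.55% of all genes) became 2 of 17 with at least 15 cycle genes (1.5%). They became 8 of 22 with at least 8 (2.06%) and 2 of 24 without the replicate block (1.02%). With 1 library left out they ran from 7 of 27 and 7 of 21 (1.38% and 1.45%) to 10 of 18 (1.59%). The 2 of 13 in macrophages (1.31%) became 0 of 13 without the replicate block (0.921%) and 10 of 14 without the shared barcodes (2.24%). With 1 library left out they ran from 0 of 16 (0.0539%) to 10 of 14 (2.53%). The cause was not tested in these cases, except that fewer or more genes pass the filter where cells or the filter change.

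Genes past a 2-fold ratio outside the gate moved in fibroblasts from 0 to 1 between diets labelled WT with every cell weighted equally, and from 1 to 0 between labels in normal diet with every cell weighted equally and to 3 with cycling cells included. With cycling cells included, NK cells had 3 between diets labelled WT and 4 between labels in high fat diet, and T cells 1 between diets labelled WT. Without cycling cells only 2 and 1 histone genes were compared in these NK contrasts. More genes were thus compared there with cycling cells, and the higher counts do not show larger ratios. With a looser class gate T cells had 2 between diets labelled WT, 3 between diets labelled CD169-DTR and 2 between labels in high fat diet. For the settings of this paragraph neither the number of genes compared nor the share of all genes past 2-fold is given. A change in count therefore cannot be told apart from a change in the genes compared.

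In library order, the cycling share of fibroblasts was 15.6%, 27%, 16.8% and 39.4% with at least 3 cycle genes, 0.817%, 2.88%, 0.341% and 5.19% with at least 8, and 0.201%, 1.99%, 0.302% and 3.46% when thinned. That of macrophages was 30.3%, 50.5%, 41.6% and 43.9% with at least 3. In the last 3 libraries it was 22.5%, 14.9% and 19.1% with at least 8, and 8.55%, 8.02% and 15.8% when thinned. Without the shared barcodes normal diet labelled CD169-DTR had 5.01% in fibroblasts and 18.8% in macrophages.

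Of the values of single genes, 940 kept direction and call, 105 lost the call, 29 gained it and 35 changed sign. In fibroblasts Hist1h2bc was at -0.56 with at least 8 cycle genes, -0.47 with Mki67 and Top2a and -0.39 thinned. In macrophages the signs changed for Hist1h2bc (-0.07 with Mki67 and Top2a, -1.18 thinned), Hist1h3d (-0.24) and Hist3h2a (-0.01) with Mki67 and Top2a, Hist1h2be (0.07 with the looser class gate, 0.02 without the replicate block, -0.30 to 0.13 with 1 library left out) and Hist1h2ac (-0.00 to 0.38). Hist1h4h there was at 0.17 in DESeq2, 0.37 with Mki67 and Top2a, 1.19 with at least 3 and 0.30 with at least 8 cycle genes, and -0.67 to 0.74 with 1 library left out, and Hist1h4i at -0.06 to 0.34. In type 1 dendritic cells Hist1h1c was at -0.01 in DESeq2, -0.02 with no filter and -0.11 to 0.20 with 1 library left out. Between the phases over all classes Hist1h1b (0.00) and Hist1h3e (0.12) changed with at least 15 cycle genes, Hist1h3a (0.21) with at least 8, and Hist1h2be was at -0.04 to 0.13 with 1 library left out. In macrophages, without the shared barcodes, the values were -0.41 for Hist1h2bc, -0.47 for Hist1h3d, -0.05 for Hist2h3c1 and 0.08 for Hist2h3c2. With 1 library left out they were -0.09 to 0.21 for Hist1h2bc, -0.50 to 1.05 for Hist1h3d, -0.70 to 0.22 for Hist2h3c2, -0.08 to 1.24 for Hist1h4h and -1.59 to 0.24 for Hist1h4i. Hist1h4h was at 0.02 in DESeq2 and 0.16 without the replicate block.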
